A study of Mus musculus with 282 samples.

Results

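The cell cycle genes described here are 54 genes used as markers of dividing cells, 26 of S phase, when DNA is copied, and 28 of G2 and mitosis (G2/M), when the copies are checked and pulled apart. They were taken by name from the gene rows of both count tables, and all 54 were found among the 48440 rows of each. The tables hold single-cell RNA-seq read counts of mouse prostate cells, and each gene was compared between naive and inflamed prostates within each of the batches 2 and 3.

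S phase genes encode the MCM helicase that unwinds DNA, the enzymes that make nucleotides and the factors that load and guard the replication fork, and their transcription is driven by E2F factors as a cell leaves G1. Genes of G2/M encode the cyclin B and CDK1 kinase, the motors and tubulin partners of the spindle, the kinetochore and the ring that divides the cell. They are transcribed later, through a promoter element called CHR and nearby CCAAT boxes, and are held off in resting cells. Basal cells line the outer layer of the prostate gland, divide rarely in a healthy adult and can be driven to divide by inflammation or injury.

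All cells came from prostates of male POET3 mice, in both conditions. POET3 mice carry an ovalbumin transgene that an androgen-responsive probasin-type promoter switches on in the prostate, which makes the gland a target for T cells that see ovalbumin. The 4 groups were naive batch 2 (55 cells), naive batch 3 (64 cells), inflamed batch 2 (85 cells) and inflamed batch 3 (78 cells). The age of the mice, the way inflammation was raised, the number of animals and whether they were pooled are not stated in the sources at hand. The cells were labelled basal prostate stem cells. They were sorted after staining with a viability dye and antibodies to CD49f, Sca-1, CD31 and CD45, and the gates are likewise not stated. Each was captured on a Fluidigm C1 chip, and its polyA RNA was amplified as full-length cDNA. A count is a sequenced read and not a molecule, so every interval below covers counting error only.

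After 14 shallow cells were left out, 53, 59, 80 and 76 cells remained in naive batch 2, naive batch 3, inflamed batch 2 and inflamed batch 3. Cells are not replicates, so reads were summed over the cells of each group, and the 4 sums held 50105953 to 79225330 counts. Median counts per cell ran from 840863 to 1001872, and median detected genes were 4739, 3432, 4683 and 4108.5 in the order above, fewest in naive batch 3. All 10 basal markers (Krt5, Krt14, Krt15, Krt17, Trp63, Itga6, Itgb4, Dst, Col17a1 and Lamb3) had reads, and their summed level was 8280 and 10100 counts per 1000000 (CPM) in the naive sums and 13900 in each inflamed sum. Of 20 leukocyte markers, 15 had no read in any sum, Ptprc (CD45) among them, and the summed level of the list was 20.6 and 11.6 CPM in naive cells and at 20.9 and 27.7 CPM in inflamed cells.

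The G2/M members were mostly higher in the inflamed cells of both batches, and the S members were not. Of the 28 G2/M members, 23 were higher in inflamed cells in both batches, 0 were lower in both and 5 (Ccna2, Cdk1, Bub1b, Anln and Cks2) differed in sign between batches. Over all 14713 genes tested, 30.6% lay higher in inflamed cells of both batches and 27.4% lay lower. Of the 26 S members, 2 (Rrm2 and Ccne1) were higher in both batches, 10 were lower in both and 13 differed in sign. Cdc6 had too few reads in batch 3 for a fold change. These counts go by sign alone, with no minimum size. Pcna, 1 of the 10, was 0.999-fold in batch 3, and Kif20b, 1 of the 23, was 1.02-fold in batch 2. In batch 2 Ccne1 had 9 reads from 1 inflamed cell and 0 naive reads. The median log2 fold change of the G2/M members was 2.45 in batch 2 and 6.86 in batch 3, and that of the S members was -1.25 and 0.17, beside 0.05 and 0.07 over all genes tested. For these fold changes a sum with under 3 counts was set to 3 counts, so that a gene with no reads in naive cells gives a bound and not an infinite fold. The batch 3 median of the G2/M members lies between Bub1 (6.77) and Aurka (6.95), which had 0 reads in naive batch 3. That median therefore depends on the floor. Where a named gene has 1 to 3 counts in a sum, its fold is instead the plain ratio, without that floor, with its 95% counting interval. That interval treats reads as independent, although many reads of a gene come from 1 amplified cell. It is therefore too narrow, and its lower end is not a firm bound. The summed level of the G2/M members was 330 and 87.7 CPM in the naive sums of batches 2 and 3 and 735 and 738 CPM in the inflamed sums. That of the S members was 1740 and 1010 CPM in naive cells and at 721 and 883 CPM in inflamed cells, so the naive sums lay above the inflamed ones.

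**Figure D1:**
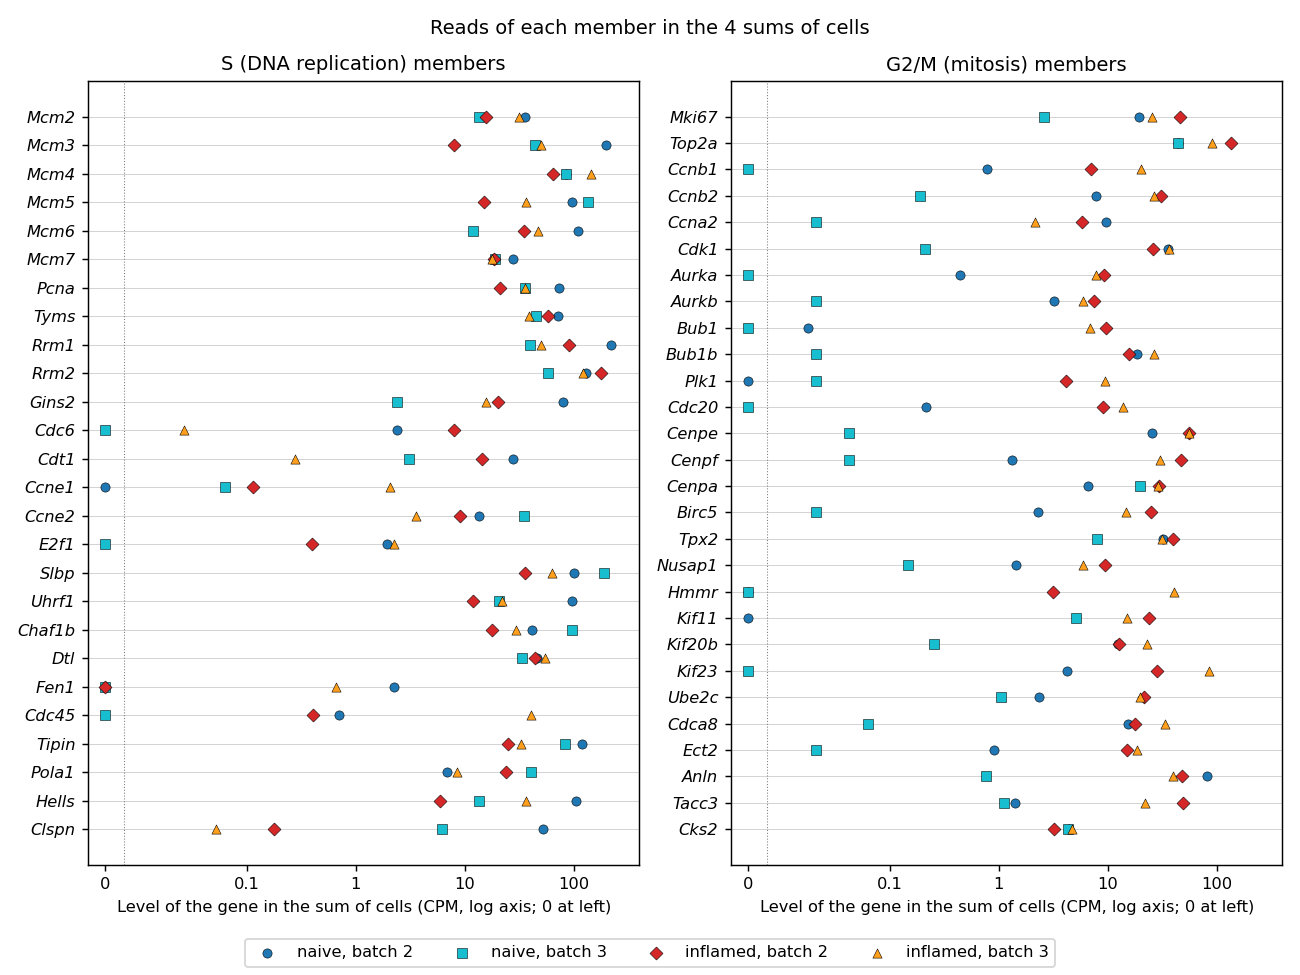
Level of each of the 26 S members (left) and 28 G2/M members (right) in the 4 sums of cells, in CPM on a log axis with 0 at the left edge; each symbol is 1 sum. In 22 of the 28 G2/M rows both inflamed symbols lie to the right of both naive ones, against 1 of the 26 S rows.

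No gene passed the test that spans the batches. With edgeR's quasi-likelihood test on the 4 sums, with batch in the model, 0 of 14713 genes (0%) had an adjusted p under 0.05, and the lowest adjusted p was 0.568. Before adjustment 742 genes were higher and 475 lower at p under 0.05, which is 5.04% and 3.23% of those tested. Of the G2/M members 5 were higher at that level (Bub1, Plk1, Cenpf, Hmmr and Tacc3) and 0 lower, and of the S members 4 were lower (Mcm5, Slbp, Tipin and Clspn) and 0 higher. Bub1, Plk1 and Hmmr had 0 or 1 reads in each naive sum and entered the test through their inflamed sums alone. They could therefore hardly have been called lower. Cenpf, with 75 and 2 reads in naive sums, and Clspn, with 14 and 4 reads in inflamed sums, also entered largely through the sums where they were high. The p-values of Cenpf and Clspn were thus hardly free to go the other way. DESeq2 with the same model called 927 genes higher and 534 lower at an adjusted p under 0.05 (6.3% and 3.63%), among them 17 G2/M members higher and 2 S members lower (Mcm5 and Clspn). Of these 17, Ccnb1, Aurka, Bub1, Bub1b, Plk1, Cdc20, Cenpe, Cenpf, Birc5, Hmmr, Kif23 and Ect2 had 0 to 2 reads in naive batch 3. These members leaned on their inflamed sums to enter the test, so they could hardly have been called lower. Ccnb2, Kif11, Ube2c, Cdca8 and Tacc3 had more reads there. The 17 calls are thus not a free count of direction. The values below are therefore descriptions of these 4 sums unless a p-value is given. In 22 of 28 G2/M members both inflamed sums lay above both naive sums, which held for 24.3% of all genes tested. In 7 of 26 S members both naive sums lay above both inflamed sums, which held for 21.3% of all genes tested.

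**Figure D2:**
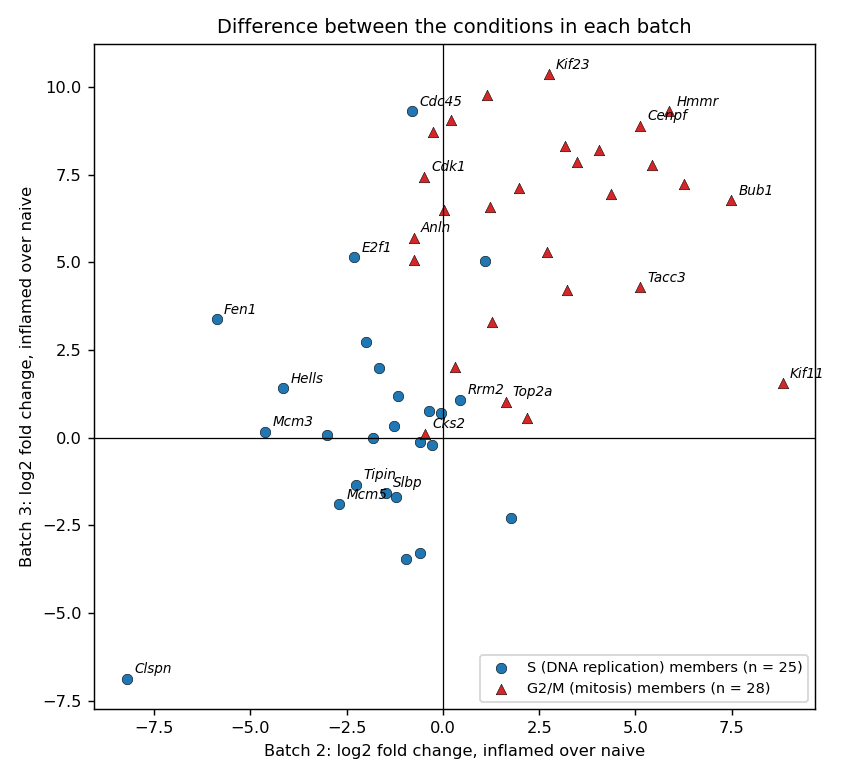
Log2 fold change of inflamed over naive in batch 2 (horizontal axis) and batch 3 (vertical axis) for the 25 S members with a fold in both batches (circles) and the 28 G2/M members (triangles); each point is 1 gene and some are named. The G2/M genes lie above 0 on the vertical axis without exception, with a median of 6.86 that depends on the floor of 3 counts. The S genes spread on both sides of 0 on that axis and lie mostly left of 0 in batch 2.

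Among the S members, the subunits of the MCM helicase differed between the batches. Mcm3, 1 of its subunits, was at 196 CPM in naive batch 2, 44.1 CPM in naive batch 3, 8.03 CPM in inflamed batch 2 and 49.5 CPM in inflamed batch 3. Naive batch 2 stood highest and inflamed batch 2 lowest, while the batch 3 sums were close. Mcm4, another subunit, was at 84.1 and 84.8 CPM in the naive sums of batches 2 and 3 and at 64.9 and 144.5 CPM in the inflamed sums, on both sides of the naive values. Mcm5 was at 96.6 and 134.8 CPM in naive cells and at 14.9 and 36.1 CPM in inflamed cells. The groups did not overlap for Mcm5, whose level was 6.5-fold lower in inflamed cells in batch 2 and 3.73-fold lower in batch 3 (fitted log2 fold change -2.30, SE 0.56, edgeR p = 0.018, adjusted p = 0.568). A single cell gave 34.2% and 76.1% of the Mcm5 reads in the naive sums of batches 2 and 3 and 75.1% and 55.4% in the inflamed sums. The batch 3 fold and the gap between the groups therefore depend on single cells. Mcm7 was at 27.9 and 19.1 CPM in naive cells and at 18.6 and 17.7 CPM in inflamed cells, a small difference, and its exons overlap those of Cops6 and Ap4m1 on the other strand. Mcm2 and Mcm6, with 11.8 to 110 CPM, were lower in inflamed cells in batch 2 (log2 fold change -1.17 and -1.67) and higher in batch 3 (1.20 and 2.00).

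The sliding clamp and the nucleotide enzymes showed no common direction. Pcna, the clamp that holds polymerases on DNA, was at 73.7 and 35.5 CPM in naive cells and at 21 and 35.5 CPM in inflamed cells, equal in batch 3 to the digits given. A processed pseudogene, Pcna-ps2, matches Pcna at 99.2% of 781 aligned bases and took 54.4% of the reads of the pair, and Pcna with it was at 167.6 and 85 CPM in naive cells and at 46.6 and 68.2 CPM in inflamed cells. Tyms, thymidylate synthase, was at 71.1 and 44.8 CPM in naive cells and at 58.4 and 38.6 CPM in inflamed cells. Rrm1, the large subunit of ribonucleotide reductase, was at 217 and 39.5 CPM in naive cells and at 90.2 and 50.1 CPM in inflamed cells, with naive batch 2 alone above the rest. Rrm2, the small subunit, was at 129.4 and 57.7 CPM in naive cells and at 177.1 and 121.6 CPM in inflamed cells. Rrm2 was thus 1.37-fold higher in inflamed cells in batch 2 and 2.11-fold higher in batch 3, and its groups overlapped.

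Cdt1, Ccne2, Slbp and Chaf1b were lower in inflamed cells in both batches. Cdt1, which loads the helicase on origins, was at 27.9 and 3.05 CPM in naive cells and at 14.4 and 0.276 CPM in inflamed cells, higher in batch 2 in either condition. In 3 of these sums a single cell gave 71.4% to 96.6% of the Cdt1 reads. Ccne2, cyclin E2, was at 13.6 and 34.8 CPM in naive cells and at 8.97 and 3.56 CPM in inflamed cells without overlap, and its exons overlap those of Ints8 on the other strand. Slbp, which binds the stem-loop of histone mRNAs, was at 99.5 and 187.5 CPM in naive cells and at 35.8 and 63.1 CPM in inflamed cells. Its level was 2.78-fold lower in inflamed cells in batch 2 and 2.97-fold lower in batch 3 (log2 fold change -1.52, SE 0.43, edgeR p = 0.0278, adjusted p = 0.568). Slbp was read widely, in 50 of 53, 38 of 59, 44 of 80 and 45 of 76 cells. Chaf1b, a subunit of the factor that sets histones on new DNA, was at 41.3 and 96.5 CPM in naive cells and at 17.7 and 29.7 CPM in inflamed cells, again without overlap (edgeR p = 0.0925, adjusted p = 0.617).

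Tipin and Clspn, which act at the replication fork, were lower in inflamed cells in both batches. Tipin, a fork protection protein, was at 118.98 and 82.6 CPM in naive cells and at 24.8 and 32.6 CPM in inflamed cells. Its groups did not overlap, and it was 4.79-fold lower in inflamed cells in batch 2 and 2.54-fold lower in batch 3 (log2 fold change -1.80, SE 0.59, edgeR p = 0.042, adjusted p = 0.568). Clspn, claspin, which relays stalled-fork signals to the kinase CHK1, was at 52.4 and 6.17 CPM in naive cells and at 0.178 and 0.0526 CPM in inflamed cells. The inflamed values are 14 and 4 reads, and Clspn was 295-fold lower in inflamed cells in batch 2 and 117.3-fold lower in batch 3 (log2 fold change -7.53, SE 1.58, edgeR p = 0.011, adjusted p = 0.568). Reads of Clspn were seen in 28 cells (of 53) and 2 (of 59) of the naive batches and in 3 (of 80) and 1 (of 76) of the inflamed ones, and 1 cell gave 99.7% of its reads in naive batch 3. The batch 3 fold of Clspn therefore rests on that cell.

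The other S members had no common direction. Uhrf1, Gins2 and Hells were lower in inflamed cells in batch 2 (log2 fold change -3.00, -1.99 and -4.14) and higher in batch 3 (0.09, 2.73 and 1.41), and Pola1, a subunit of the priming polymerase, went the other way (1.78 and -2.28). Dtl was at 33.2 to 54.5 CPM in the 4 sums. Ccne1, cyclin E1, had 0 and 3 reads in the naive sums of batches 2 and 3 beside 0.114 and 2.06 CPM in inflamed cells. E2f1, an E2F factor, was lower in inflamed cells in batch 2 and higher in batch 3. Cdc6, Ccne1, E2f1 and Fen1 did not exceed 7.97 CPM in any sum, and 4 S members had no read in naive batch 3. Cdc45, a part of the active helicase, was at 40.1 CPM in inflamed batch 3 and at most 0.709 CPM elsewhere, with 3049 reads from 5 cells of which 1 gave 56.9%.

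The S members were highest in naive batch 2 for 14 of 26 genes. They were also read in more cells there: the median S member had reads in 47.2% of the cells of naive batch 2, against 18.6% in naive batch 3 and 15.6% and 17.8% in the inflamed batches 2 and 3. With at least 5 reads required, these medians were 19.8%, 8.47%, 8.75% and 11.8%. Without naive batch 2, the mean of both inflamed sums was set against naive batch 3, with batch ignored. The median log2 fold change of the S members was then 0.44, beside -0.91 with all 4 sums compared in the same way. The sign of that median therefore rests on naive batch 2. The summed S level of naive batch 3 (1010 CPM) was still above those of both inflamed sums. Naive batch 2 had the most detected genes per cell of the 4 groups (a median of 4739, beside 3432 in naive batch 3 and 4683 and 4108.5 in the inflamed batches), and the part of this in the result was not tested.

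**Figure D3:**
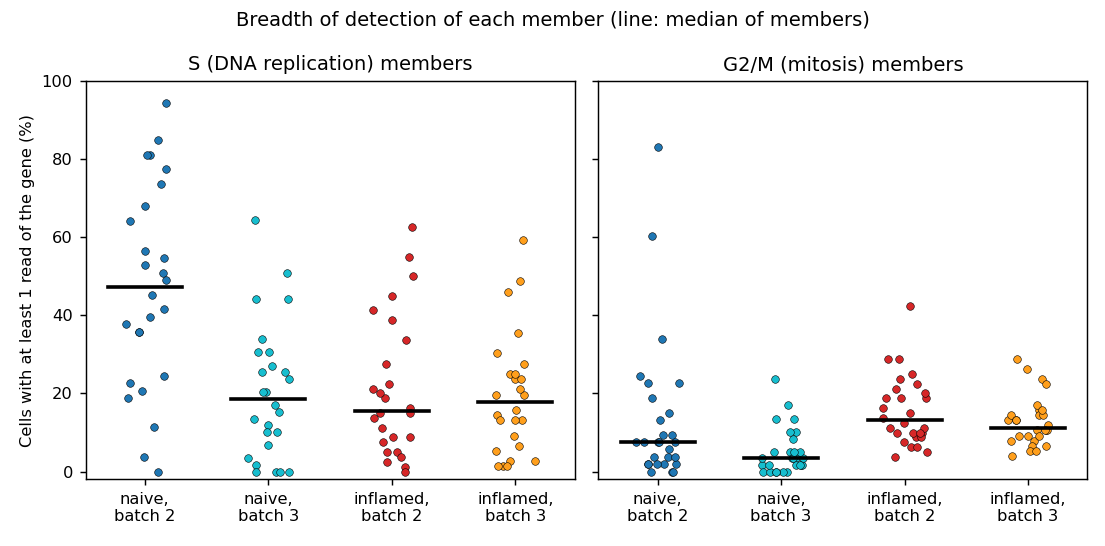
Percentage of cells with at least 1 read of each S member (left) and each G2/M member (right) in the 4 groups; each point is 1 gene and the line is the median over the members. The S medians are 47.2%, 18.6%, 15.6% and 17.8% and the G2/M medians 7.55%, 3.39%, 13.1% and 11.2%, in the order of the groups on the axis.

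Among the G2/M members, the general markers of cycling cells were higher in inflamed sums in both batches. Mki67, which encodes the proliferation antigen Ki-67, was at 19.2 and 2.61 CPM in the naive sums of batches 2 and 3 and 46.4 and 25.7 CPM in the inflamed sums. Mki67 was 2.42-fold higher in inflamed cells in batch 2 and 9.83-fold higher in batch 3, without overlap (edgeR p = 0.12, adjusted p = 0.66). Top2a, topoisomerase II alpha, which untangles sister chromatids, was at 43.9 and 44.1 CPM in naive cells and at 135.4 and 90.3 CPM in inflamed cells. It was 3.09-fold higher in inflamed cells in batch 2 and 2.05-fold higher in batch 3 (log2 fold change 1.33, SE 0.50, edgeR p = 0.0626, adjusted p = 0.576). Top2a had reads in 44 of 53 cells of naive batch 2 but at least 5 reads in 16, and 1 cell gave 73.3% of the reads.

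The mitotic kinases and their cyclins were near 0 in naive batch 3. Cdk1, the kinase that starts mitosis, was at 35.9 and 0.211 CPM in naive cells and at 25.8 and 36.6 CPM in inflamed cells, so that naive batch 3 alone, with 10 reads, stood apart. Plk1, a kinase of spindle assembly and mitotic exit, had 0 and 1 reads in naive sums and 4.11 and 9.46 CPM in inflamed cells. Plk1 was at least 77.3-fold higher in inflamed cells in batch 2 with naive cells at the floor of 3 counts per sum, and 449-fold higher in batch 3 (95% counting interval 80.3 to 17800; edgeR p = 0.0283, adjusted p = 0.568). It lies at chr7:122159439-122169873 (GRCm38) and its exons overlap Gm44985 on the other strand. Bub1, a spindle checkpoint kinase at chr2:127801122-127831865, had 1 and 0 reads in naive sums and 9.59 and 6.92 CPM in inflamed cells. Bub1 was 541-fold higher in inflamed cells in batch 2 (96.8 to 21400) and at least 109.5-fold higher in batch 3 (edgeR p = 0.0255, adjusted p = 0.568). These kinases were read in few cells, Plk1 in 5 of 80 and 4 of 76 and Bub1 in 7 of 80 and 5 of 76 inflamed cells. In the inflamed sums of batches 2 and 3, 1 cell gave 66% and 73.6% of the Plk1 reads and 47.1% and 52.5% of the Bub1 reads.

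Among the other kinases and regulators, Aurka, Aurkb and the anaphase activator Cdc20 had 0 to 1 reads in naive batch 3, at most 3.21 CPM in naive batch 2 and 5.98 to 13.8 CPM in inflamed cells. In the inflamed sums of batches 2 and 3, 1 cell gave 99.6% and 50.5% of the Aurka reads, 54.8% and 82.9% of the Aurkb reads and 95% and 82.7% of the Cdc20 reads. The cyclin Ccnb1 was at 0.78 and 0 CPM in naive cells and at 6.98 and 20.0 CPM in inflamed cells, and Ccnb2 at 7.76 and 0.19 CPM in naive cells and at 30.7 and 26.4 CPM in inflamed cells. Ccna2, cyclin A2, was lower in inflamed batch 2 than in naive batch 2 (5.77 against 9.66 CPM), where 1 naive cell gave 98.7% of its reads. Cks2, a small CDK1 partner, differed least in the list, at 4.41 and 4.34 CPM in naive cells and at 3.20 and 4.70 CPM in inflamed cells.

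The centromere and kinetochore members Cenpf, Cenpe and Cenpa were higher in inflamed cells in both batches. Cenpf, a kinetochore protein of chr1:189640606-189688086, was at 1.33 and 0.0421 CPM in naive cells and at 46.5 and 30.2 CPM in inflamed cells. The naive reads of Cenpf in batch 2 came from 1 cell (75 reads) and in batch 3 from 2 reads in 2 cells, whereas 20 of 80 and 13 of 76 inflamed cells had reads. Its level was 35-fold higher in inflamed cells in batch 2 and 716-fold higher in batch 3 (198 to 5920; edgeR p = 0.0269, adjusted p = 0.568). Cenpe, a kinetochore motor, was at 25.2 and 0.0421 CPM in naive cells and at 55.4 and 55.8 CPM in inflamed cells, and 1 cell gave 99.8% of its reads in naive batch 2. Cenpa, the histone that marks centromeres, was at 6.54 and 19.7 CPM in naive cells and at 29.6 and 28.9 CPM in inflamed cells, so naive cells did carry some of it, with 92.4% and 90.3% of the reads from 1 cell in each sum.

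Of the members that act on the spindle, Hmmr, Tacc3, Tpx2 and Kif11 were higher in inflamed cells in both batches. Hmmr, the hyaluronan-mediated motility receptor, which also binds spindle microtubules, lies at chr11:40701395-40733422. It had 0 reads in both naive sums and 3.12 and 40.1 CPM in inflamed cells, from 4 of 80 and 8 of 76 cells. Hmmr was at least 58.7-fold higher in inflamed cells in batch 2 and at least 634-fold higher in batch 3 (edgeR p = 0.0221, adjusted p = 0.568). Tacc3, which stabilises spindle fibres, was at 1.42 and 1.12 CPM in naive cells and at 49.3 and 22 CPM in inflamed cells. It was 34.8-fold higher in inflamed cells in batch 2 and 19.7-fold higher in batch 3 (log2 fold change 4.71, SE 1.20, edgeR p = 0.0205, adjusted p = 0.568). A single cell gave 95% and 96.2% of the Tacc3 reads in the naive sums of batches 2 and 3 (80 and 53 reads), and 30.1% and 52.1% in the inflamed sums. The exons of Tacc3 overlap Tmem129 on the other strand. Tpx2, the activator of aurora A on the spindle, was at 31.8 and 7.88 CPM in naive cells and at 39.8 and 31.6 CPM in inflamed cells, with 82.9% of the reads of naive batch 2 from 1 cell. Of the motor genes, Kif11 had 0 reads in naive batch 2 and 5.10 CPM in naive batch 3, beside 24 and 14.9 CPM in inflamed cells.

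Kif23, Ect2 and Anln act after the chromosomes part, when the cell divides, and Anln differed from the other two in batch 2. Kif23, a motor of the midzone between the separating chromosomes, was at 4.24 and 0 CPM in naive cells and at 28.5 and 83.9 CPM in inflamed cells. Kif23 was 6.74-fold higher in inflamed cells in batch 2 and at least 1327-fold higher in batch 3 (edgeR p = 0.17, adjusted p = 0.713). Ect2, which triggers the contractile ring, was at 0.904 and 0.0211 CPM in naive cells and at 15 and 18.6 CPM in inflamed cells. Anln, anillin, a scaffold of that ring, was at 81.3 and 0.758 CPM in naive cells and at 48.1 and 39.5 CPM in inflamed cells. Naive batch 2 was thus the highest of the 4 sums for Anln, and 1 cell gave 66.3% of its reads there.

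Across the list, 3 G2/M members had no read in naive batch 2 and 6 had none in naive batch 3, while each had reads in both inflamed sums. The median share of a member's reads that came from its top cell was 82.9% in naive batch 2 and 91% in naive batch 3, against 41.1% and 42.6% in inflamed sums. Members without reads have no such share. In naive batch 3 Ccna2, Aurkb, Bub1b, Plk1, Birc5 and Ect2 had 1 read each, which fixes their share at 100%. The contrast therefore follows in part from the low naive counts. When the cell with the highest G2/M level was left out of each sum, the list's median log2 fold change was 3.25 in batch 2 and 6.57 in batch 3, and 23 members were again higher in both batches.

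The promoters of the members were compared because 23 G2/M members differed in the same direction in both batches. RefSeq windows of 300 bases (250 before and 50 from the gene's start on, GRCm38.p6) were found for 22 of 26 S and 25 of 28 G2/M members. The stretches below are those of the members with an unadjusted p under 0.05 that hold the element known for their phase, and show how near the start it lies. Each is read 5′ to 3′ on the gene's strand. In the S genes the capitals mark E2F matches, in the G2/M genes CHR matches (TTTGAA or TTCGAA) and CCAAT boxes (CCAAT or, on the other strand, ATTGG).
Mcm5, chr8:75109339-75109448 (+): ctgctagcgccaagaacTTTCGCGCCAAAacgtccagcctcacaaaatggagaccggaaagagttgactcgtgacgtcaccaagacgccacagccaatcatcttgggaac
Clspn, chr4:126556905-126557009 (+): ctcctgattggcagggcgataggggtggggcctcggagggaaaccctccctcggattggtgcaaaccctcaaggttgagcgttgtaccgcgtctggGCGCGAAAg
Bub1, chr2:127831830-127831939 (-): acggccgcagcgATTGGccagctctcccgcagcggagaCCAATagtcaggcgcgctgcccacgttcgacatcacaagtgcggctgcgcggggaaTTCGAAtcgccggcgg
Cenpf, chr1:189688057-189688226 (-): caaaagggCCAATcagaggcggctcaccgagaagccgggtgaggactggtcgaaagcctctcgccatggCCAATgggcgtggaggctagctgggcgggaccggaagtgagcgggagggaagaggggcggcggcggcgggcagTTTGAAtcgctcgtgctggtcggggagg
Hmmr, chr11:40733408-40733577 (-): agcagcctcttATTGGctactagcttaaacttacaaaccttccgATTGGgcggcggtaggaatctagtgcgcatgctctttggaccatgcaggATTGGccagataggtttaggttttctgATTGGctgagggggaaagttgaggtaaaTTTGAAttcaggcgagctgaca
Plk1, chr7:122159441-122159470 (+): ccttgtaacgttcccagcgccgcgTTTGAA

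The CHR letters begin 2 bases after the start base in Cenpf, 8 in Hmmr, 14 in Bub1 and 30 in Plk1, counted with the start base as 0. Upstream of the CHR, Bub1 has 2 CCAAT boxes and Cenpf 2, Hmmr has 4 in the stretch shown, and Plk1 has a CCAAT box at -14, outside its stretch. Both matches of Mcm5 overlap within 1 run and begin at -153 and -149, and the match of Clspn begins at 21. Slbp and Tacc3 held no E2F or CHR match in their windows, and Tipin had no window.

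CHR matches on either strand were found in 19 of 25 G2/M windows (76%), 4 of 22 S windows (18.2%) and 19.4% of the 27025 windows of all genes. CCAAT boxes were in 20 of 25 G2/M, 14 of 22 S and 37.9% of all windows, and both elements were in 17 of 25 G2/M, 3 of 22 S and 7.7% of all windows. E2F matches were searched as TTTGGCGC, TTTCCCGC, TTTCGCGC and TTTGCCGC on both strands, which overlap each other in part. They were in 10 of 22 S windows (45.5%), 1 of 25 G2/M windows (Cdk1) and 2.32% of all windows. The E2F windows of S genes included 4 MCM subunits (Mcm3, Mcm5, Mcm6 and Mcm7). In 18 G2/M genes a CHR match began within 50 bases of the start. Ccnb1, Cenpe, Birc5, Nusap1, Tacc3 and Cks2 held no CHR match. A match is a description of letters and not a bound site, and these windows say nothing of naive against inflamed cells.

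**Figure D4:**
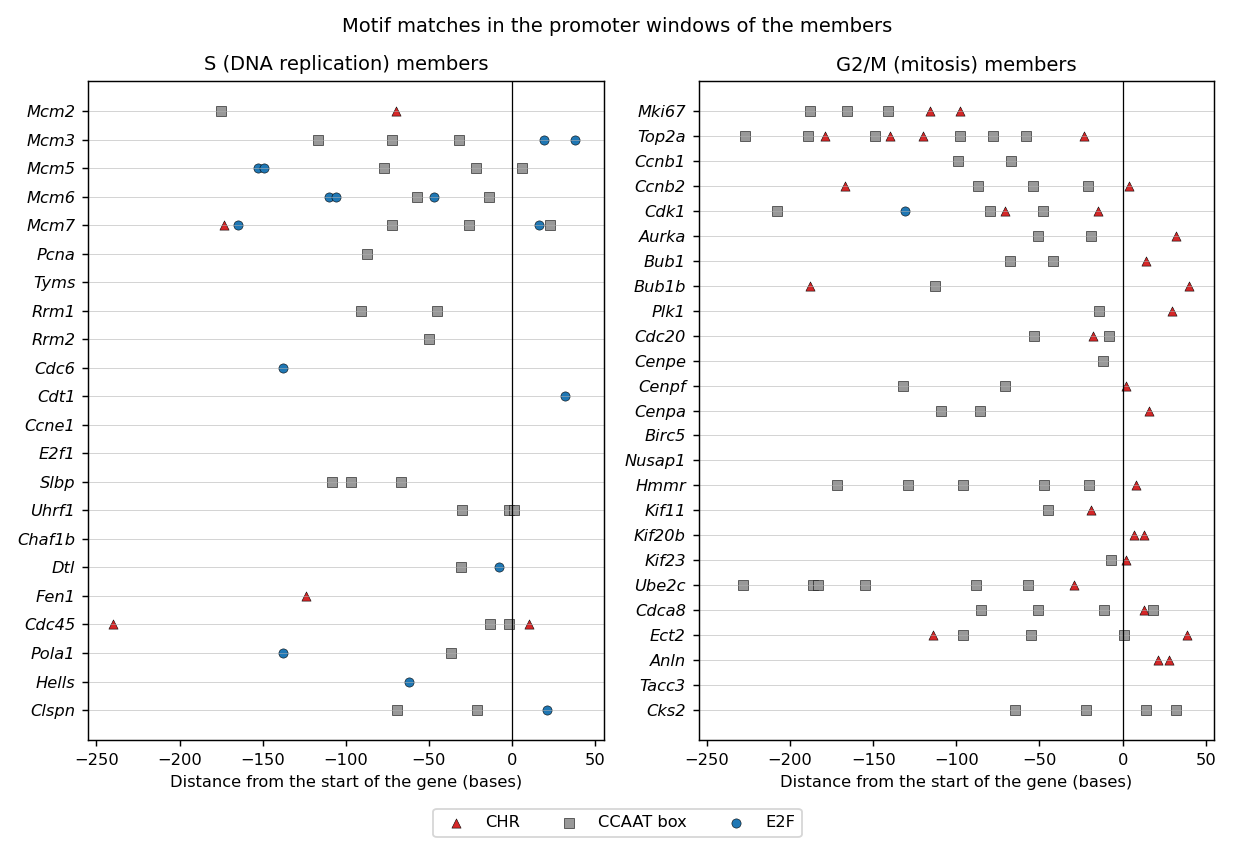
Position of each CHR (triangle), CCAAT box (square) and E2F (circle) match relative to the gene's start (0) in the windows of 22 S members (left) and 25 G2/M members (right). The CHR triangles of the G2/M genes gather near the start (median 2 bases after it), and 10 of the S rows hold an E2F circle against 1 of the G2/M rows.

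Which cells carried these reads was read cell by cell. A cell with reads of at least 10 of the 28 G2/M members was called G2/M-carrying, and a cell with reads of at least 10 of the 26 S members S-carrying. G2/M-carrying cells were 2 of 53 in naive batch 2 (3.77%, exact Clopper-Pearson 95% interval 0.46 to 13), 0 of 59 in naive batch 3 (0%, 0 to 6.06), 6 of 80 in inflamed batch 2 (7.5%, 2.8 to 15.6) and 9 of 76 in inflamed batch 3 (11.8%, 5.56 to 21.3). Both inflamed shares were above both naive shares, but the intervals overlap, and with 6 genes required in place of 10 the order ended (17% and 0% in naive cells, 22.5% and 14.5% in inflamed cells of batches 2 and 3). With 2 sums a condition, an exact two-sided permutation test that left batch out gave p = 0.333, the smallest it allows, so it could not decide. In cells thinned to 500000 counts, which left out 7, 4, 10 and 4 shallower cells, the shares were 4.35%, 0%, 7.14% and 11.1%.

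The lowest G2/M-carrying cell had reads of 13 members, and no cell outside the class had more than 9. The inflamed carriers had 15 to 27 members with reads in batch 2 and 13 to 24 in batch 3, and the naive carriers 15 and 17. The 15 inflamed carriers gave 80.7% of all G2/M reads of inflamed batch 2 and 87.6% of those of batch 3, from 7.5% and 11.8% of the cells. In naive batch 2 the carriers gave 49.6% of the G2/M reads. Carriers of inflamed batch 2 had a median of 967529 counts and 5694 genes against 1011932 counts and 4611.5 genes in other cells, and those of inflamed batch 3 960515 counts and 4723 genes against 1013244 and 3966. The 2 carriers of naive batch 2 had a median of 1713242 counts and 6044.5 genes against 897713 and 4679 in other cells. Carriers thus had more genes in these 3 groups, and were deeper than other cells in naive batch 2 but not in the inflamed batches.

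By gene, Top2a, Cenpf and Cks2 had reads in 14 of the 15 inflamed carriers, Cdk1 in 13, and Mki67, Cenpe, Birc5, Tpx2, Nusap1, Kif11, Kif23 and Cdca8 in 12. Aurka and Cdc20 were the least often read, in 5 of 15. Outside the carriers, Plk1 and Aurkb had reads in 1 inflamed cell each, Hmmr in 2 and Nusap1 in 3, while Top2a and Cdk1 had reads in 32 each (22.7% of the other inflamed cells). Since the class was set by these genes, the counts describe it and test nothing.

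The carriers also held the markers of the sorted population. Krt5, Krt14, Krt15, Krt17 and Dst had reads in 15 of 15 inflamed carriers and Trp63, the p63 factor of basal cells, in 12, against 70.2% of the other inflamed cells. Of 20 leukocyte markers, 2 had reads in carriers and 4 in other inflamed cells. Ptprc, Cd3e, Cd8a, Lyz2, Tyrobp and Laptm5 had none in either, while Trac had reads in 3 of 15 carriers against 2.13% of the others and Cd68 in 5 of 15 against 12.8%. Of 13 luminal markers, 8 had reads in carriers and 13 in other inflamed cells. Krt8 had reads in 14 carriers and Krt18 in 15, beside 78% and 100% of the others, Cldn3 in 7 of 15 against 14.9%, and Defb50 in 5 of 15 against 63.1%. The secretory genes Pbsn, Tgm4 and Msmb had reads in 0 carriers and in 0.709%, 4.96% and 0.709% of the others. Of 10 stromal markers, 4 had reads in carriers and 4 in the others: Dcn in 15 carriers and 100% of the others, Acta2 in 6 and 30.5%, Col1a2 in 2 and 0%, and Col1a1 in 1 and 2.84%. Of 8 endothelial markers, Pecam1 and Vwf had reads in 1 carrier each and in 1.42% and 0.709% of the others. The part of these cells in the result was not tested.

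S-carrying cells had another distribution. They were 37 of 53 in naive batch 2 (69.8%, 55.7 to 81.7), 6 of 59 in naive batch 3 (10.2%, 3.82 to 20.8), 9 of 80 in inflamed batch 2 (11.2%, 5.28 to 20.3) and 10 of 76 in inflamed batch 3 (13.2%, 6.49 to 22.9). Naive batch 2 thus stood apart, and the intervals of the other 3 groups overlap (exact two-sided permutation p = 1.0 over the 4 sums with batch left out, and 0.333 the smallest possible). After thinning the shares were 47.8%, 9.09%, 8.57% and 12.5%, and with at least 5 reads required per gene the share in naive batch 2 was 20.8%. The number of S members with reads formed no gap: the median cell had 13 in naive batch 2 and 5, 5 and 4 in the other groups, and 16, 9, 16 and 10 cells had 8 to 12. The S class is therefore a range of cells and not a separate set.

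Few cells of any group were in both classes: 2 of 53 in naive batch 2, 0 of 59 in naive batch 3, 5 of 80 in inflamed batch 2 and 4 of 76 in inflamed batch 3. Only S members reached the mark in 35, 6, 4 and 6 cells, and only G2/M members in 0, 0, 1 and 5. In naive batch 2, 35 of 37 S-carrying cells were therefore not G2/M-carrying, against 4 of 9 and 6 of 10 in the inflamed groups. Across cells, the number of S members and of G2/M members with reads had a Pearson r of 0.53 in naive batch 2 (53 cells), -0.03 in naive batch 3 (59), and 0.61 (80) and 0.50 (76) in the inflamed batches 2 and 3, with both numbers dependent on the depth of the same cell. In the inflamed carriers, Rrm2 had reads in 14 of 15, Rrm1 and Uhrf1 in 12, Pcna in 10 and Tyms in 9, whereas Mcm2 and Clspn had reads in 2 and Cdt1, Cdc6 and E2f1 in 1.

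**Figure D5:**
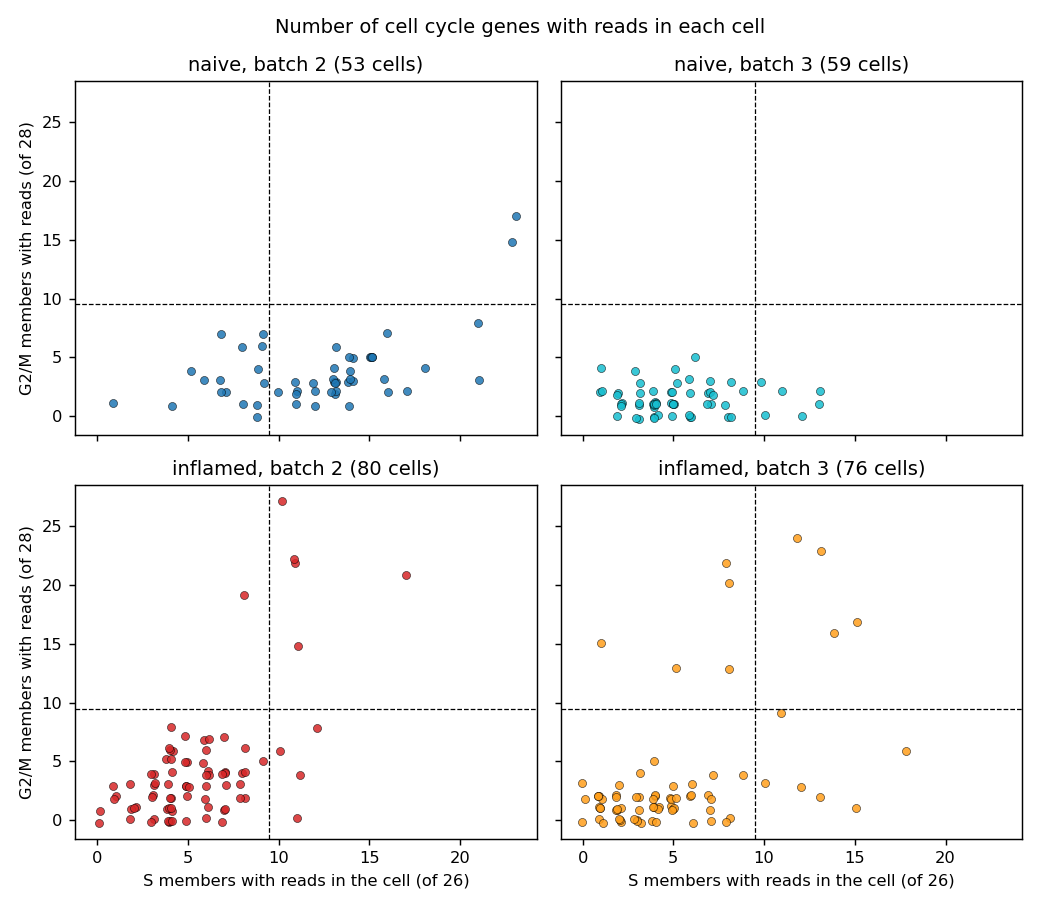
Number of S members (horizontal axis, of 26) and of G2/M members (vertical axis, of 28) with reads in each kept cell, in 4 panels by group; each point is 1 cell, moved slightly at random so that points do not hide each other, and the dashed lines mark the step from 9 to 10. Points above the horizontal line number 2, 0, 6 and 9, and points right of the vertical line 37, 6, 9 and 10, in the order of the panels.

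Other genes of the cell cycle, listed apart from the members, were read in the same fit. Of 46 further replication genes, inflamed cells had 9 higher (19.6%) and 16 lower (34.8%) in both batches, beside 30.6% and 27.4% of all genes tested, with 0 at an unadjusted p under 0.05 in either direction, and their medians were -0.91 in batch 2 and -0.02 in batch 3. Rfc2, a subunit of the clamp loader, was at 138.1 and 62.2 CPM in naive cells and at 43.7 and 46.8 CPM in inflamed cells. Rpa1, which coats single-stranded DNA, was at 184.1 and 172.5 CPM in naive cells and at 121.4 and 241 CPM in inflamed cells. Orc4, of the origin recognition complex, was at 70.8 and 172.7 CPM in naive cells and at 138.5 and 104.7 CPM in inflamed cells, and Rfc1 at 110 and 40.8 CPM in naive cells and at 44.6 and 79 CPM in inflamed cells. The groups overlapped for Rpa1, Orc4 and Rfc1.

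Of 60 further mitosis genes, 29 were higher (48.3%) and 8 lower (13.3%) in inflamed cells in both batches, beside 30.6% and 27.4% of all genes tested. At an unadjusted p under 0.05, 5 were higher and 0 lower, beside 5.04% and 3.23% of all genes. Their medians were 0.89 in batch 2 and 4.01 in batch 3. Dlgap5, a spindle protein, had 0 reads in naive sums and 7.26 and 42 CPM in inflamed cells (edgeR p = 0.0182, adjusted p = 0.568). Melk, a mitotic kinase, also had 0 reads in naive sums, with 11.5 and 11.7 CPM in inflamed cells, and Psrc1, a spindle protein, 0 reads against 13.9 and 2.29 CPM. Against the floor of 3 counts, Dlgap5 was at least 136.5-fold and 665-fold higher, Melk 217-fold and 185.2-fold, and Psrc1 262-fold and 36.2-fold, in batches 2 and 3. Dlgap5, Melk and Psrc1 entered the test through their inflamed sums alone, so they could hardly have been called lower. Ndc80, of the outer kinetochore, was at 0.921 and 1.26 CPM in naive cells and at 41 and 24.4 CPM in inflamed cells, and Ckap2l at 5.28 and 11.7 CPM in naive cells and at 37.8 and 71.7 CPM in inflamed cells. The 4 genes of the list with the highest mean CPM did not share an order. Smc4, of the condensin ring, was 1.64-fold lower in inflamed cells in batch 2 and 2.32-fold higher in batch 3. The tubulin Tubb4b was at 88.7 and 105.8 CPM in naive cells and at 66.9 and 54.1 CPM in inflamed cells, and Ckap5 at 160.6 and 64.6 CPM in naive cells and at 71.2 and 52.3 CPM in inflamed cells. Bub3, a checkpoint protein, was at 102.1 and 85.5 CPM in naive cells and at 146.5 and 117.5 CPM in inflamed cells, without overlap.

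Upstream of the cycle, 19 genes of G1 cyclins, kinases and their drivers had 4 higher (21.1%) and 7 lower (36.8%) in both batches, beside 30.6% and 27.4% of all genes tested. Ccnd2, cyclin D2, was at 627 and 617 CPM in naive cells and at 130 and 181.4 CPM in inflamed cells, 4.83-fold and 3.4-fold lower (log2 fold change -2.02, SE 0.33, edgeR p = 0.00471, adjusted p = 0.568). Its partner kinase Cdk6 was at 329 and 400 CPM in naive cells and at 589 and 855 CPM in inflamed cells, 1.79-fold and 2.14-fold higher (log2 fold change 0.97, SE 0.28, edgeR p = 0.031, adjusted p = 0.568). Cdk4 was at 144.4 and 173.1 CPM in naive cells and at 161.9 and 212 CPM in inflamed cells, and Myc at 172.5 and 314 CPM in naive cells and at 333 and 327 CPM in inflamed cells. Cyclin D2 and its kinase thus lay on opposite sides.

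Of 29 genes that hold back the cycle, 6 were higher (20.7%) and 12 lower (41.4%) in both batches, beside 30.6% and 27.4% of all genes tested. At an unadjusted p under 0.05, 3 were lower and 0 higher, beside 3.23% and 5.04% of all genes. Btg2, an antiproliferative gene, was at 3938 and 6051 CPM in naive cells and at 1333 and 2296 CPM in inflamed cells, 2.96-fold and 2.64-fold lower (log2 fold change -1.48, SE 0.23, edgeR p = 0.00411, adjusted p = 0.568). Tob1, of the same family, was at 263 and 247 CPM in naive cells and at 39.3 and 72.8 CPM in inflamed cells, 6.69-fold and 3.4-fold lower (edgeR p = 0.0102, adjusted p = 0.568). Cdkn2c, the CDK4 and CDK6 inhibitor p18, was at 2.20 and 9.5 CPM in naive sums and had 2 reads in each inflamed sum, 86.6-fold (counting interval 23.5 to 723) and 361-fold (99.4 to 2990) lower (edgeR p = 0.0406, adjusted p = 0.568). Cdkn2c entered the test through its naive sums alone, so it could hardly have been called higher. Btg1, a relative of Btg2, was at 1806 and 3270 CPM in naive cells and at 2766 and 3604 CPM in inflamed cells and overlapped. Trp53, which encodes p53, was at 304 and 328 CPM in naive cells and at 165.4 and 263 CPM in inflamed cells. Wee1, the kinase that restrains CDK1, was 1.16-fold lower in inflamed cells in batch 2 and 1.9-fold higher in batch 3.

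Genes outside these lists were ranked by how closely their level followed the number of G2/M members with reads across inflamed cells, by the lower of the Pearson r of batches 2 and 3, among 11203 genes with reads in at least 10 inflamed cells. The first 10 were Gm8956, Ccnb1-ps, Gm12856, Esco2, Shcbp1, Gm13176, Pclaf, Pimreg, Gm12479 and Gm15428. Of these 6 are annotated as processed pseudogenes, and Ccnb1-ps and Gm12856 are copies of Ccnb1 (99.2% and 98.1% identity). Esco2, which sets cohesion between sister chromatids, had r of 0.69 and 0.66 over 80 and 76 cells, and Shcbp1 0.73 and 0.64. Pclaf, a PCNA-binding protein, had 0.72 and 0.59, with reads in 32 naive cells. By the same measure Top2a, itself counted in the number, had 0.82 and 0.88 and Cenpf 0.84 and 0.78, while the nearest S members, Uhrf1 and Mcm5, had 0.66 and 0.53, and 0.48 and 0.30. The points share depth within a cell, and these values describe the cells at hand.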

How the data were processed

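The authors deposited raw read counts, with 48440 gene rows and a column for each cell in a table for each batch. Of the rows 48058 matched a symbol. TopHat2, HTSeq, R 3.4.1, Seurat 1.4 and the build GRCm38.p6 are named, without roles, per the submitters' processing notes. The sources used here do not give how reads with several matches, or strand, were treated, so near-identical copies and genes overlapping on opposite strands are uncertain. Copies were found with blastn 2.17.0 (at least 95% identity over 200 bases) in GENCODE transcripts.

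Kept cells had at least 1000 detected genes and at least 50000 counts. Depth was 2725 to 2219764 counts per deposited cell. No 2 cells had identical counts, 0 columns were unused, and no doublet caller was run. Kept cells were summed per condition and batch. The test was edgeR 4.0.16 (quasi-likelihood, TMM, filterByExpr, condition plus batch, 1 residual degree of freedom, Benjamini-Hochberg) in R 4.3.3, tested on simulated data, with DESeq2 1.42.0 as an alternative. The labels name no animal, and batch is in the model, so p-values weigh the difference between conditions against its variation from batch to batch. This variation may be technical. Its estimate for each gene borrows from other genes, with 2.66 prior degrees of freedom beside the 1 residual. Batch pairs the sums by the labels, and the batch deviations of both conditions had a correlation of -0.011 across genes. Of the 54 members 53 passed the filter on low counts, and Ccne1, which did not, has no p. Within-batch folds used TMM-adjusted CPM and a floor of 3 counts per sum, except folds printed with a counting interval, where a sum with 1 to 3 counts kept its count.

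Members named with values were the 8 of each list with the highest mean CPM, those with an unadjusted p under 0.05 and those lower in both batches. Of the other lists they were the 4 with the highest mean CPM and those with an unadjusted p under 0.05, at most 6. Other members are named as examples chosen after their values were seen. Members and lists were chosen with earlier results of these data known.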

Additional observations from a re-analysis of the deposited data

Results flagged for a closer look

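The S members differed between the batches. Their median log2 fold change, inflamed over naive, was -1.25 in batch 2 and 0.17 in batch 3, with 22 of 26 lower in batch 2 and 14 of 26 higher in batch 3. This difference between batches was not tested, since each holds 1 sum per condition. Naive batch 2, with a summed S level of 1740 CPM and S-carrying cells at 69.8%, was the highest of the 4 sums in both.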

How the results depend on the processing

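Of the recomputed counts of calls, list medians, members in both batches and cell shares, 97 kept their direction and stayed within the limits set for them, 16 moved and 1 reversed. A list median could move by the standard deviation of its batch medians, 3.12 for the G2/M and 1.0 for the S members. A cell share could move within its counting interval. These limits are wide, so the tally is a weak check. Calls at an adjusted p under 0.05 were 0 in each direction with upper-quartile factors, without a filter, with no replicate block (batch left out) and without any 1 of the sums (range 0 to 0), but 927 higher and 534 lower with DESeq2, in which 1712 genes had no adjusted p. At an unadjusted p under 0.05 edgeR gave 742 higher and 475 lower. The median log2 fold change over both batches was -0.41 for the S members and 4.59 for the G2/M members, the latter dependent on the floor of 3 counts. Leaving out each sum gave -1.06 to 0.44 and 2.29 to 6.89, and 0.44, the reversed value, is the one without naive batch 2. With no replicate block the medians were -0.91 and 2.88. G2/M members higher in both batches numbered 23 to 25 in 8 other settings, among them added pseudogene reads, chosen after seeing the data. These counts have no value with a sum left out, nor under a filter or block. S-carrying shares in naive batch 2 were 47.8% after thinning, and 94.3%, 37.7% and 20.8% with 6 genes, 14 genes and 5 reads per gene required. In naive batch 3 they were 39%, 0% and 3.39%, in inflamed batch 2 45%, 1.25% and 2.5%, and in inflamed batch 3 32.9% and 5.26% with 6 and 14 genes. G2/M-carrying shares with 6 genes were 17% in naive and 22.5% in inflamed batch 2, and 0% in naive and 14.5% in inflamed batch 3, so inflamed batch 3 fell below naive batch 2. Of 50 named genes 3 changed sign with no replicate block (Rpa1 0.02, Orc4 -0.00, Smc4 -0.12). The cause was not tested. With a sum left out, 11 changed sign in at least 1 case, and their log2 fold changes ranged as follows: Mcm4 (-0.36 to 0.79), Tyms (-0.58 to 0.12), Rrm1 (-1.58 to 0.83), Cdt1 (-5.79 to 1.27), Cdk1 (-0.15 to 7.20), Anln (-0.84 to 5.85), Rpa1 (-0.53 to 0.45), Orc4 (-0.50 to 0.83), Rfc1 (-0.78 to 0.60), Smc4 (-0.78 to 1.34) and Btg1 (-0.04 to 0.87). The 59 cells of naive batch 3 allow a G2/M-carrying share of up to 6.06% (exact interval).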
